A study of Saccharomyces cerevisiae with 8 samples.

Results

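The genes described here are 10 genes of de novo purine synthesis and of the one-carbon supply that feeds it, in Saccharomyces cerevisiae: ADE1, ADE2, ADE4, ADE5,7, ADE6, ADE8, ADE13, ADE17, MTD1 and SHM2. They were taken by symbol as genes under the transcription factors Bas1 and Bas2, and they were 10 of the 6337 genes in the count table. All 10 passed the filter on low counts, as did 6087 genes in all. Messenger RNA was sequenced from 4 strains with 2 libraries each, in a study of ribosome collisions in tRNA modification mutants. Per the labels every strain is BY4741, mating type a, with the alleles his3∆1, leu2∆0 and ura3∆0, grown in YPD, a rich medium. The wild type carries met15∆0 as a further allele. The hel2∆ strain has hel2∆::LEU2, the ncs2∆elp6∆ strain has ncs2∆::HIS3MX and elp6∆::URA3, and the triple mutant ncs2∆elp6∆hel2∆ carries all of these insertions. Without Ncs2, needed to add sulfur, and Elp6, a subunit of the Elongator complex, U34 at the wobble position of certain tRNAs stays unmodified. Hel2 is the ubiquitin ligase that recognises collided ribosomes. The study calls its mRNA replicates of ncs2∆elp6∆ and of the triple mutant biological. For ncs2∆elp6∆ it counts more of them than the 2 libraries used here. The labels do not say whether the libraries of a strain came from separate cultures. The p-values measure the spread between these libraries.

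Purines are built on phosphoribosyl pyrophosphate (PRPP) in a chain of enzymatic steps that ends in IMP, from which AMP and GMP are made. Some of these steps need a one-carbon group carried by tetrahydrofolate, which serine hydroxymethyltransferase takes from serine. Genes of both kinds are transcribed together in yeast. Bas1, a Myb-type factor, and Bas2 (also called Pho2), a homeodomain factor, act as a pair that is activated by intermediates of the pathway itself. The genes are known to be turned down when adenine is supplied and turned up when it is scarce. Bas1 binds the hexamer TGACTC, which is also the core of the site of Gcn4, the activator of amino acid synthesis genes.

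The hexamer was searched on both strands in the 500 nt upstream of each start codon in the RefSeq assembly R64. At least 1 copy lay upstream of every one of the 10 genes, with 19 copies in all and 2 or more in 7 genes. Of the 6002 windows of the same length upstream of all protein-coding genes, 12.6% held a copy and 1.43% held 2 or more. The genes were chosen as Bas1/Bas2 targets, so these shares describe the choice and are not independent of it. Printed here are copies of ADE1 and ADE17, whose mRNAs fell most, and of SHM2, the more abundant of the one-carbon genes. Beside them stand copies of ADE4 and MTD1, whose mRNAs were not called in any comparison with the main settings (edgeR, TMM, all libraries). They are read 5′ to 3′ toward the start codon, and capitals mark the hexamer or its reverse complement GAGTCA.
ADE1, distal copy, chrI:169137-169166, plus strand: aagcttattcacGAGTCAgtctgactcttg
ADE1, proximal copy, chrI:169146-169175, plus strand: cacgagtcagtcTGACTCttgcgagagatg
ADE17, distal copy, chrXIII:509570-509599, minus strand: atttgcagttttTGACTCttttttccttag
ADE17, proximal copy, chrXIII:509440-509469, minus strand: ccagaaatgaatTGACTCctctcataactt
SHM2, copy nearest the start codon, chrXII:259611-259640, minus strand: accataaaggttTGACTCtatctcttgggt
ADE4, only copy, chrXIII:867431-867460, minus strand: gacccgatgtatTGACTCttcctgaccgaa
MTD1, copy nearest the start codon, chrXI:590209-590238, plus strand: attatgatatatTGACTCagtagaaaagga

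In ADE1 the copies lay 226 and 217 nt upstream of the start codon, on opposite strands of the same short stretch, so that both printed windows hold both of them. In ADE17 they lay 307 and 177 nt upstream and both read toward the gene. ADE4 had its single copy 357 nt upstream. The MTD1 copy 174 nt upstream was the only one of the 19 followed by the further A of the longer Gcn4 site TGACTCA. Of the other de novo purine genes, ADE3 had 1 copy, ADE12 had 2, and ADE16, the isozyme of ADE17, had none in its window. A copy of the hexamer is a match of letters, and binding of a factor was not measured.

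**Figure D1:**
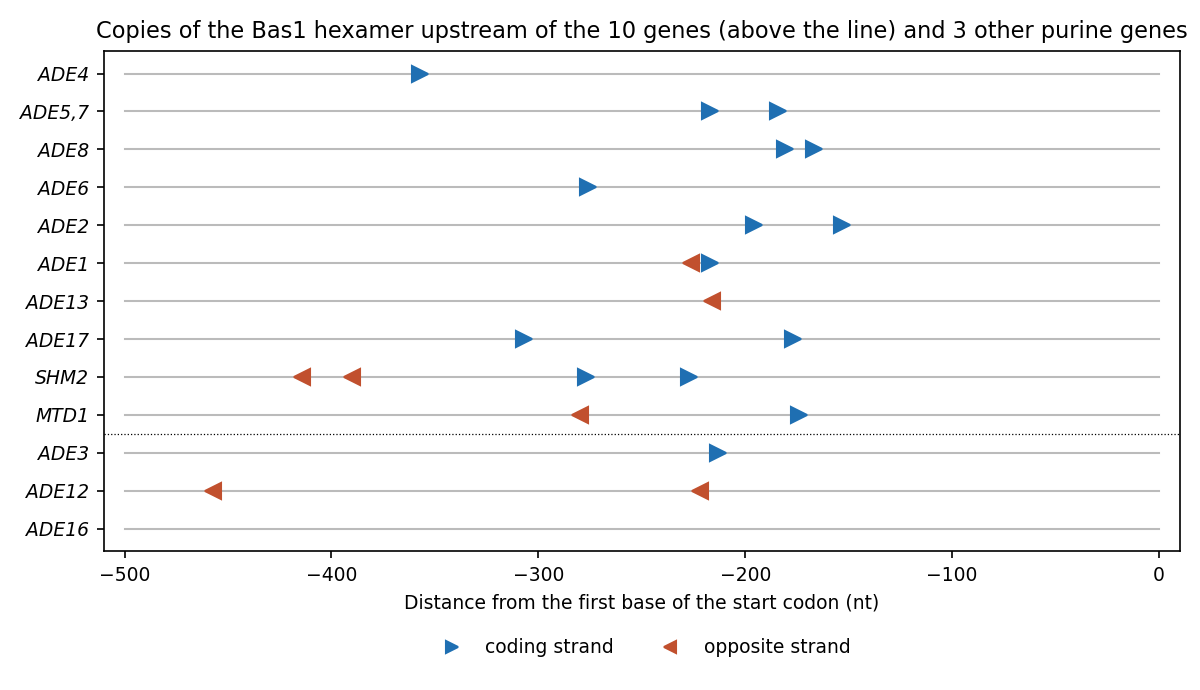
Position of each TGACTC copy in the 500 nt upstream of the start codon (horizontal axis, nt from the start codon) for the 10 genes and for ADE3, ADE12 and ADE16. Blue triangles read toward the gene and orange triangles read on the opposite strand; every one of the 10 genes has at least 1 copy and ADE16 has none.

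The genes lie on 7 chromosomes, each as a single annotated locus with no near-identical copy and no annotated overlap. In R64 coordinates ADE1 (YAR015W) spans chrI:169375-170295 and ADE17 (YMR120C) spans chrXIII:507502-509280. SHM2 (YLR058C) spans chrXII:257992-259401. Their coding sequences run from 645 nt (ADE8) to 4077 nt (ADE6), against a median of 1194 nt over all genes. The lysine codon AAA, the glutamine codon CAA and the glutamate codon GAA are read by tRNAs with the sulfur-containing form of the U34 modification. Codons read by tRNAs with its other forms, such as AGA and ACA, were not counted in this share. AAA, CAA and GAA together made up between 7.94% of codons (ADE8) and 13.7% (ADE1). In this share 5 of the 10 genes lay above the median of all genes, 11.3%. A CGA or a GCA codon directly followed by AAA or by CAA, a pair the study was concerned with, occurred in 5 of the 10 genes and in 40.1% of all genes. In these codon measures the 10 genes lay on both sides of the genome's middle.

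Total counts per library ran from 13252947 to 23941037, and the correlation between the libraries of a strain across genes was 0.990 to 0.994. HEL2 had 0 or 1 counts in the libraries labelled as its deletion, and NCS2 and ELP6 had 0 to 11 counts in those labelled as theirs. The a-specific gene STE2 stood at 602 to 936 CPM (counts scaled to a common library size by TMM) in all libraries. The alpha-specific MF(ALPHA)1 had at most 36 counts, MF(ALPHA)2 at most 4.84 CPM and STE3 at most 11.6 CPM, as in cells of mating type a. These markers did shift between strains. In ncs2∆elp6∆ against wild type the a-specific STE2, MFA2 and BAR1 were called lower (log2 fold change -0.31, -1.06 and -1.05). STE3 was called higher (0.94), and MFA1, MF(ALPHA)1 and MF(ALPHA)2 were not called. In the triple mutant against hel2∆, STE2 and BAR1 were called lower (-0.41 and -1.22), MF(ALPHA)1 was called higher (3.32), and the others were not called. In the triple mutant against ncs2∆elp6∆, only MFA1 and MFA2 of these markers were called, both higher (1.84 and 1.37). None of them was called in hel2∆ against wild type. MFA1 ran from 24.9 CPM in an ncs2∆elp6∆ library to 168 CPM in a triple-mutant library. MET17, the gene removed in met15∆0, had 0 to 6 counts in wild type and hel2∆ but 232 to 281 CPM in the strains without NCS2 and ELP6, although the label of hel2∆ lists no met15 allele. The markers HIS3MX, URA3 and LEU2 also go with the deletions they replaced. Loss of the U34 modification therefore cannot be told apart from HIS3MX, URA3 and MET17, and loss of HEL2 cannot be told apart from the LEU2 marker, in any comparison here.

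The 10 genes together took 0.443% to 0.453% of all counts in wild type and 0.451% to 0.462% in hel2∆. Their share was 0.320% to 0.326% in ncs2∆elp6∆ and 0.346% to 0.356% in the triple mutant. The 4 libraries without the U34 modification were thus all below the 4 with it. To compare genes with one another, CPM were divided by the coding length in kilobases. In wild type SHM2, the cytosolic serine hydroxymethyltransferase, had the highest level at 573 CPM per kb, followed by ADE13 at 480.0, ADE17 at 456 and ADE1 at 359.8. ADE5,7 stood at 296, ADE2 at 188, ADE8 at 145, ADE6 at 126, MTD1 at 117 and ADE4 at 103 CPM per kb. SHM2 was first and ADE13 second in every one of the 8 libraries. ADE1 was 4th of 10 in all wild-type and hel2∆ libraries and 5th or 6th in all libraries without NCS2 and ELP6. ADE5,7 moved the other way, from 5th to 3rd or 4th, and MTD1 moved from 9th to 7th.

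**Figure D2:**
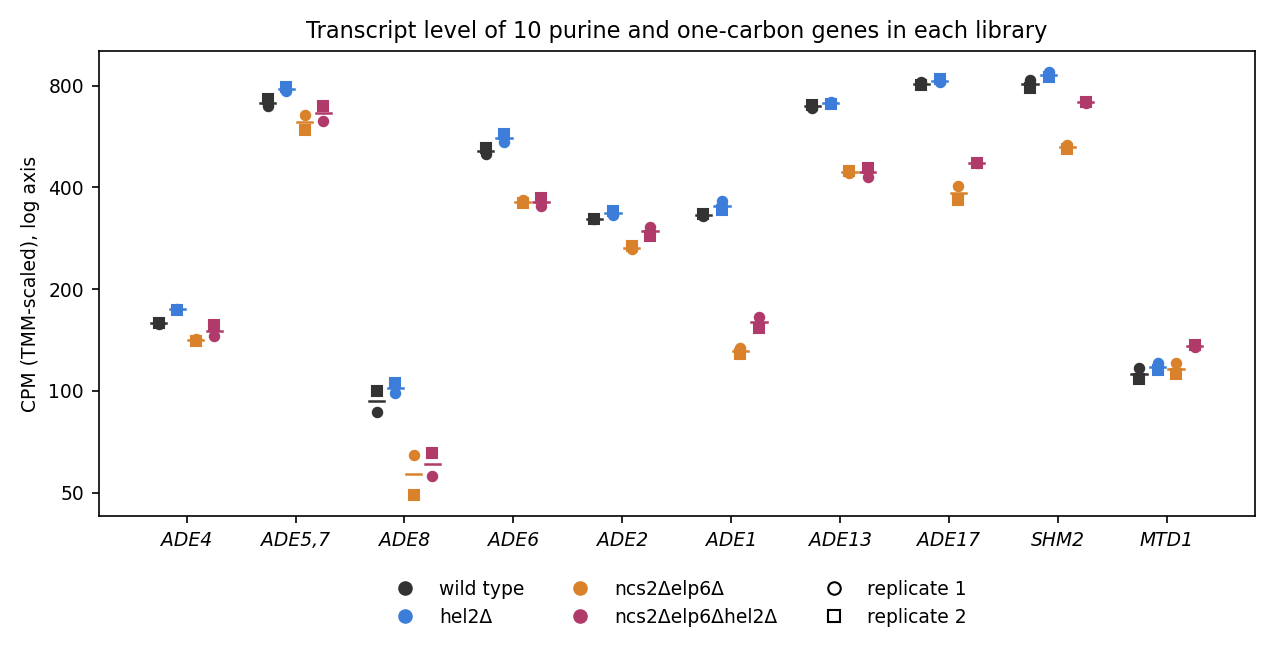
Level of each of the 10 genes in each library (TMM-scaled CPM, logarithmic axis), with 2 points per strain and a line at the mean. ADE1, ADE17, ADE13, ADE6, ADE8 and SHM2 sit lower in ncs2∆elp6∆ and in the triple mutant than in wild type and hel2∆, and MTD1 does not.

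The first comparison asks how mRNA levels change when U34 is left unmodified. Here 7 of the 10 genes fell and none rose in ncs2∆elp6∆ against wild type, with a median log2 fold change of -0.56 over the 10 against 0.03 over all genes tested. The falls ran from 2.53-fold in ADE1 to 1.21-fold in ADE2. Of all genes tested 27.9% were called in this comparison, 14.9% as higher and 13.0% as lower. Among the 2334 genes with a mean level at least that of the lowest of the 10 genes, 17.7% were called lower. The libraries did not overlap, with ncs2∆elp6∆ below, for 9 of the 10 genes, as for 30.0% of all genes.

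Neither ADE4, at the entry into the pathway, nor ADE5,7 was called. ADE4, the PRPP amidotransferase that commits PRPP to purine synthesis, stood at 158 and 159 CPM in wild type and at 142 and 141 CPM in ncs2∆elp6∆. ADE5,7, which encodes a bifunctional enzyme of an early and a middle step, stood at 698 and 728 CPM against 657 and 589 CPM. Both had lower values in the mutant in each library, but neither passed the test. Their log2 fold changes were -0.16 ± 0.07 (SE; adjusted p = 0.121, edgeR quasi-likelihood test with Benjamini-Hochberg adjustment) and -0.19 ± 0.08 (adjusted p = 0.116).

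The next genes act in the middle of the chain. ADE8, the glycinamide ribotide transformylase, which uses a folate-borne carbon, stood at 86.8 and 99.7 CPM in wild type and at 64.4 and 49.2 CPM in ncs2∆elp6∆. ADE8 is the least abundant of the 10 by CPM, and its fall of 1.64-fold (log2 fold change -0.72 ± 0.14, adjusted p = 0.0046 by edgeR) has the largest SE of the 10. ADE6, the formylglycinamidine ribotide synthetase, fell 1.41-fold from 503 and 522 CPM to 366 and 359.8 CPM (log2 fold change -0.50 ± 0.07, adjusted p = 0.000974 by edgeR). ADE2, the carboxylase whose loss gives red colonies, stood at 322 and 322 CPM in wild type and at 262 and 268 CPM in the mutant. Its log2 fold change of -0.28 ± 0.07 passed the test (adjusted p = 0.0146 by edgeR) with all libraries, and not when any one of the wild-type or ncs2∆elp6∆ libraries was left out (adjusted p from 0.0561 to 0.0631) or when library totals replaced TMM (adjusted p = 0.103).

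The largest falls were those of ADE1 and ADE17, which act late in the chain. The falls did not deepen with each step, since ADE8 acts before ADE2 and had a log2 fold change of -0.72 against -0.28. ADE1, the SAICAR synthetase, stood at 329.7 and 333 CPM in wild type and at 134 and 128 CPM in ncs2∆elp6∆. ADE17, which carries out the last steps to IMP, stood at 820.3 and 802 CPM against 404 and 366 CPM. In both genes the gap between the strains was far wider than that between the libraries of one strain. The log2 fold change was -1.34 ± 0.07 for ADE1 (adjusted p = 3.45e-06 by edgeR) and -1.08 ± 0.08 for ADE17 (adjusted p = 1.58e-05). ADE13, the adenylosuccinate lyase, acts in this branch and again on the way to AMP. Its level went from 688 and 703 CPM to 439.9 and 447 CPM, which is -0.65 ± 0.07 on the log2 scale (adjusted p = 0.00019 by edgeR).

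Of the 2 one-carbon genes, SHM2 passed the test. It stood at 831 and 786 CPM in wild type and at 535 and 519 CPM in ncs2∆elp6∆, a fall of 1.53-fold (log2 fold change -0.62 ± 0.07, adjusted p = 0.00033 by edgeR). MTD1, a cytosolic methylenetetrahydrofolate dehydrogenase, stood at 117 and 108 CPM in wild type and at 121 and 112 CPM in ncs2∆elp6∆. Its libraries overlapped between the strains, and the log2 fold change was 0.05 ± 0.08 (adjusted p = 0.69 by edgeR). It was the only one of the 10 whose fold change was above 0 here, and the sign turned without wild-type replicate 2 (-0.01) or ncs2∆elp6∆ replicate 1 (-0.05).

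The second comparison asks the same in cells without HEL2, with libraries that the first did not use. In ncs2∆elp6∆hel2∆ against hel2∆, 6 of the 10 genes fell and none rose, with a median log2 fold change of -0.45 against 0.0034 over all genes. Over all genes 28.8% were called, 15.1% as higher and 13.8% as lower, and 17.9% as lower among the genes at least as abundant as the lowest of the 10. The triple mutant lay below hel2∆ without overlap in 9 genes and above it in MTD1, as for 32.7% and 33.5% of all genes.

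ADE1 stood at 364 and 343 CPM in hel2∆ and at 165 and 154 CPM in the triple mutant. ADE17 stood at 817 and 839 CPM against 473 and 473 CPM. Both were again the largest falls of the 10, at 2.21-fold for ADE1 (log2 fold change -1.15 ± 0.07, adjusted p = 5.71e-06 by edgeR) and 1.75-fold for ADE17 (-0.81 ± 0.07, adjusted p = 6.79e-05). ADE8 went from 98.6 and 106 CPM to 56.1 and 65.5 CPM, which is a log2 fold change of -0.75 ± 0.13 (adjusted p = 0.00303 by edgeR). ADE13 went from 717 and 708 CPM to 431 and 456 CPM, which is a log2 fold change of -0.68 ± 0.07 (adjusted p = 0.000114 by edgeR). ADE6 fell from 544 and 574 CPM to 353 and 372 CPM, which is a log2 fold change of -0.63 ± 0.07 (adjusted p = 0.000233 by edgeR).

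SHM2 stood at 878 and 846 CPM in hel2∆ and at 709 and 717 CPM in the triple mutant. The groups did not overlap, and its log2 fold change of -0.27 ± 0.07 passed the test with all libraries (adjusted p = 0.0199 by edgeR). The call was lost when any one hel2∆ or triple-mutant library was left out (adjusted p from 0.0527 to 0.11) and with library totals (adjusted p = 0.1). ADE2 stood at 331 and 341 CPM against 306 and 288 CPM (log2 fold change -0.18 ± 0.07, adjusted p = 0.0715 by edgeR). ADE4 stood at 175 and 174 CPM against 145 and 156 CPM (-0.21 ± 0.07, adjusted p = 0.0526), and ADE5,7 at 772 and 794 CPM against 629.8 and 694 CPM (-0.24 ± 0.08, adjusted p = 0.0564). These 3 genes were lower in each triple-mutant library without passing the test in this fit. ADE5,7 did pass with DESeq2 (-0.25, adjusted p = 0.0371), and ADE4 with RLE scaling (-0.22, adjusted p = 0.0494 by edgeR). MTD1 stood at 121 and 115 CPM in hel2∆ and at 135 and 137 CPM in the triple mutant, a log2 fold change of 0.20 ± 0.08 (adjusted p = 0.0782 by edgeR). With library totals, which put the median of all genes at 0.11 here, MTD1 was called higher (0.31, adjusted p = 0.0181 by edgeR).

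Set side by side, the sign of the fold change was the same in both backgrounds for all 10 genes. ADE1, ADE17, ADE8, ADE13 and ADE6 fell in both under each alternative, and ADE1 and ADE17 led in both. Across the 10 genes the correlation of the 2 sets of fold changes was 0.930, given as a description over genes that share their libraries. Scaling by library totals moved the median of all genes to 0.14 in the first comparison and to 0.11 in the second, and the median of the 10 genes to -0.45 and -0.35.

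**Figure D3:**
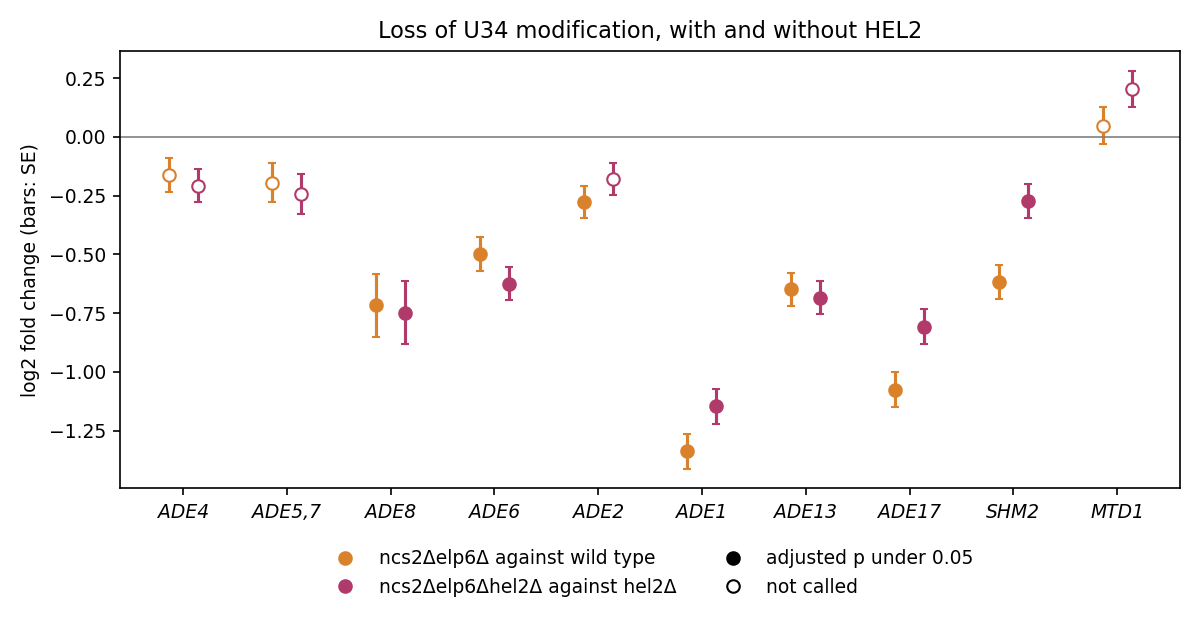
Log2 fold change (± SE) of each of the 10 genes on loss of the U34 modification, with HEL2 (ncs2∆elp6∆ over wild type) and without it (triple mutant over hel2∆); filled points passed the test at an adjusted p under 0.05. ADE1 (-1.34 and -1.15) and ADE17 (-1.08 and -0.81) lie lowest in both, and MTD1 (0.05 and 0.20) lies above 0 in both.

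The third comparison asks what loss of HEL2, with the LEU2 marker in its place, does in the wild-type background. In hel2∆ against wild type none of the 10 genes was called, the lowest adjusted p being 0.998 by edgeR, and DESeq2 called none either. Over all genes 0.657% were called. The fold changes lay between 0.03 in ADE17 and 0.14 in ADE4 on the log2 scale, with a median of 0.09 against -0.0041 over all genes. All 10 were above 0, and in 7 of them both hel2∆ libraries lay above both wild-type libraries, as in 13.8% of all genes. ADE4, for example, stood at 158 and 159 CPM in wild type and at 175 and 174 CPM in hel2∆. With library totals in place of TMM the values of ADE13 and ADE17 turned to -0.02 and -0.03.

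The fourth comparison asks what loss of HEL2 does where U34 is already unmodified. In ncs2∆elp6∆hel2∆ against ncs2∆elp6∆, SHM2 and ADE17 rose and no gene fell, 2 of the 10, with a median log2 fold change of 0.13. Over all genes 6.93% were called, 2.81% as higher. The triple-mutant libraries lay above the ncs2∆elp6∆ libraries without overlap in 6 genes, as in 28.2% of all genes. SHM2 stood at 535 and 519 CPM in ncs2∆elp6∆ and at 709 and 717 CPM in the triple mutant, a log2 fold change of 0.44 ± 0.07 (adjusted p = 0.0111 by edgeR). ADE17 went from 404 and 366 CPM to 473 and 473 CPM (0.30 ± 0.07, adjusted p = 0.0468 by edgeR), and ADE1 from 134 and 128 CPM to 165 and 154 CPM (0.28 ± 0.07, adjusted p = 0.0511). These 3 levels were higher in each triple-mutant library, and all 3 lay below every wild-type library.

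Both calls were sensitive to leaving out a library. The call of SHM2 was lost without ncs2∆elp6∆ replicate 1, ncs2∆elp6∆ replicate 2 or triple-mutant replicate 1 (adjusted p from 0.0645 to 0.12), with its log2 fold change between 0.43 and 0.50 over the 8 fits. The call of ADE17 was lost without any one of the wild-type, ncs2∆elp6∆ or triple-mutant libraries (adjusted p from 0.0514 to 0.284), with its log2 fold change between 0.25 and 0.41. With library totals ADE17 was not called either (0.24, adjusted p = 0.0702 by edgeR). ADE1 was called by DESeq2 (adjusted p = 0.0194) and with RLE scaling (adjusted p = 0.0434 by edgeR). It was also called in the edgeR fit to the compared strains only (adjusted p = 0.0286) and with a replicate block (adjusted p = 0.0377). The remaining genes had values from -0.0012 in ADE6 and -0.00089 in ADE13 to 0.22 in MTD1, and the sign of ADE6 and ADE13 turned with the scaling, to 0.02 each by DESeq2.

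The fifth comparison, the interaction, tests whether loss of HEL2 acts differently in the 2 backgrounds. None of the 10 genes was called, by edgeR or by DESeq2, against 1.13% of all genes. The largest value was that of SHM2, at 0.34 ± 0.10 on the log2 scale (adjusted p = 0.191 by edgeR), followed by ADE17 at 0.27 ± 0.11 (adjusted p = 0.299) and ADE1 at 0.19 ± 0.10 (adjusted p = 0.451). The other 7 lay between -0.13 and 0.16. The difference in the response of SHM2 between the backgrounds thus did not pass the test.

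**Figure D4:**
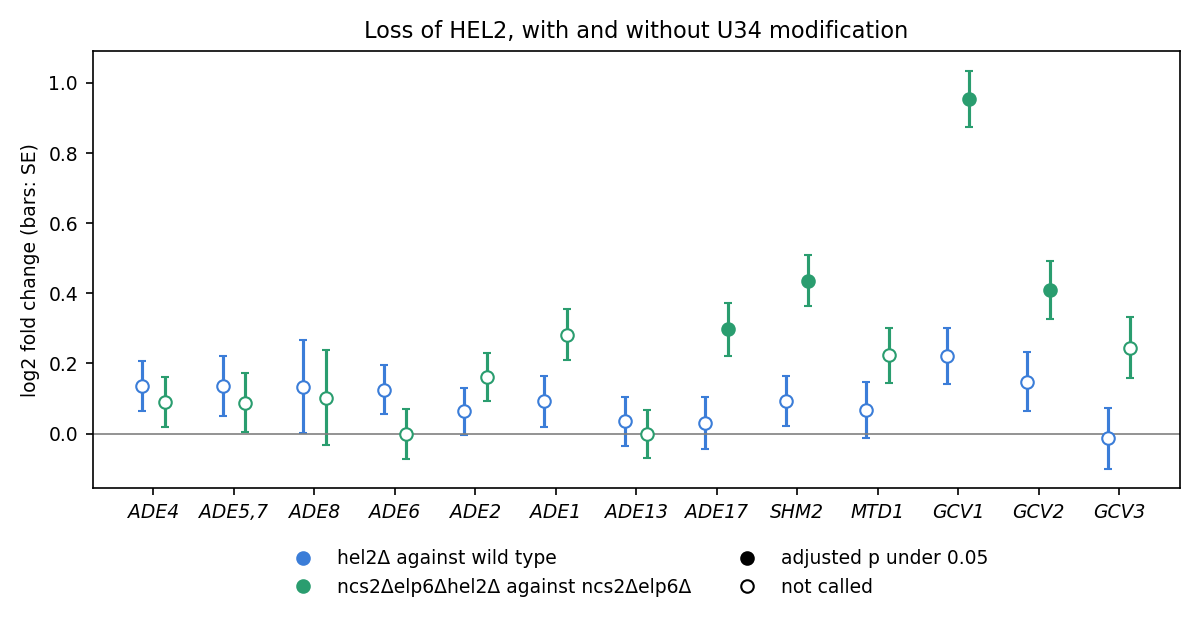
Log2 fold change (± SE) of each of the 10 genes and of GCV1, GCV2 and GCV3 of glycine cleavage on loss of HEL2, with the U34 modification (hel2∆ over wild type) and without it (triple mutant over ncs2∆elp6∆); filled points passed the test at an adjusted p under 0.05. No gene passed in the wild-type background, and SHM2 (0.44), ADE17 (0.30), GCV1 (0.95) and GCV2 (0.41) passed without the U34 modification.

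The mRNAs of the regulators were not called in the first comparison. BAS1 stood at 58.8 and 53.2 CPM in wild type and at 63.8 and 66.5 CPM in ncs2∆elp6∆ (log2 fold change 0.22 ± 0.09, adjusted p = 0.0905 by edgeR). PHO2, which encodes Bas2, stood at 49.5 and 50.1 CPM against 54.1 and 58.7 CPM (0.18 ± 0.08, adjusted p = 0.129). GCN4, whose protein level is set by translation, stood at 856 and 846 CPM against 789.6 and 774 CPM (-0.12 ± 0.07, adjusted p = 0.246). The study reports more translation of GCN4 in the triple mutant, with its transcription unchanged. It also reports that mRNAs of Gcn4 targets mostly rose in ncs2∆elp6∆ and rose further in the triple mutant. The mRNA level of GCN4 is therefore no measure of Gcn4 activity. In BAS1 and PHO2 both ncs2∆elp6∆ libraries lay above both wild-type libraries. With library totals, which put the median of all genes at 0.14, both were called (adjusted p of 0.0286 and 0.0336). In the triple mutant against hel2∆ BAS1 rose by 0.33 ± 0.09 (adjusted p = 0.019 by edgeR), a call lost without either hel2∆ library or triple-mutant replicate 1 (adjusted p from 0.0557 to 0.121). PHO2 (0.12) and GCN4 (-0.09) were not called there, and none of the 3 was called on loss of HEL2 in either background or in the interaction.

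Of the de novo purine genes outside the 10, ADE3, the cytosolic enzyme that makes several folate-borne one-carbon forms, fell in both comparisons. It stood at 507 and 546 CPM in wild type, 544 and 568 CPM in hel2∆, 406 and 354 CPM in ncs2∆elp6∆, and 363 and 417 CPM in the triple mutant. The log2 fold changes were -0.47 ± 0.10 (adjusted p = 0.00656 by edgeR) and -0.51 ± 0.10 (adjusted p = 0.00386), and the first call was lost without ncs2∆elp6∆ replicate 2 (adjusted p = 0.0575). ADE12, the adenylosuccinate synthase, was not called in the first (-0.17, adjusted p = 0.111) and fell by 0.27 in the second (adjusted p = 0.0236), lost without either hel2∆ library or triple-mutant replicate 1 (adjusted p from 0.0748 to 0.162). ADE16, which encodes the isozyme of ADE17 and whose coding sequence is 74.7% identical to it, was called in neither. It stood at 317 and 336 CPM in wild type and at 305 and 289 CPM in ncs2∆elp6∆, a log2 fold change of -0.14 ± 0.07 (adjusted p = 0.188 by edgeR), where ADE17 changed by -1.08. Of these 3 genes none was called on loss of HEL2 in either background.

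In the branch from IMP to GTP the largest change was a rise, that of IMD2. IMD2, an inosine monophosphate dehydrogenase whose transcription is known to respond to GTP, stood at 30.8 and 39.8 CPM in wild type, 27.9 and 26.5 CPM in hel2∆, 170.2 and 159 CPM in ncs2∆elp6∆, and 164 and 185 CPM in the triple mutant. Every library without the U34 modification lay far above every library with it, and the log2 fold change was 2.23 ± 0.12 (adjusted p = 3.32e-06 by edgeR) and 2.68 ± 0.12 (adjusted p = 7.83e-07). Its closest relative IMD3 is 89.0% identical over the aligned coding sequence, and how reads shared by both were counted was not stated. Of the 4 genes of this branch that were tested, 2 were called higher and 1 lower in ncs2∆elp6∆, and 1 higher and 1 lower in the triple mutant against hel2∆. IMD3 (0.23, adjusted p = 0.0472 by edgeR) lost its call without any one of the 8 libraries (adjusted p from 0.0564 to 0.258). GUK1, the guanylate kinase, had -0.40 (adjusted p = 0.007 by edgeR, and 0.0562 without ncs2∆elp6∆ replicate 2).

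Of 14 genes of purine salvage and interconversion, 5 fell and none rose in each of the 2 comparisons. Over all genes 13.0% and 13.8% were called lower in these comparisons, and 14.9% and 15.1% higher. The counts of the other linked lists are to be read beside these shares. AAH1, the adenine deaminase, stood at 202 and 205 CPM in wild type, 218 and 209 CPM in hel2∆, 107 and 112 CPM in ncs2∆elp6∆ and 111 and 108 CPM in the triple mutant. HPT1, the hypoxanthine-guanine phosphoribosyltransferase, stood at 354 and 339 CPM, 379.9 and 355 CPM, 227 and 216 CPM, and 230.0 and 253 CPM in the same order. In both genes all libraries without the modification lay below all with it. The log2 fold changes were -0.90 ± 0.07 and -0.97 ± 0.07 for AAH1 (adjusted p of 3.59e-05 and 1.48e-05 by edgeR) and -0.65 ± 0.08 and -0.60 ± 0.08 for HPT1 (0.000385 and 0.000489). Of the 5 PRPP synthetase genes, which make the starting sugar phosphate, 1 rose in the first comparison and 3 in the second. PRS3 rose by 0.43 ± 0.07 (adjusted p = 0.00213 by edgeR) and by 0.34 ± 0.07 (adjusted p = 0.00688, and 0.0541 without triple-mutant replicate 2). The other calls of the second comparison, of PRS2 and PRS5, were lost without hel2∆ replicate 1, hel2∆ replicate 2 or triple-mutant replicate 2, and that of PRS5 also without triple-mutant replicate 1 (adjusted p from 0.0588 to 0.185).

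Among 8 genes of folate synthesis and methyl transfer, 1 was higher and 2 lower in ncs2∆elp6∆ against wild type, and 2 higher and 2 lower in the triple mutant against hel2∆. DFR1, the dihydrofolate reductase, stood at 76.3 and 59.9 CPM in wild type and at 35.8 and 35.2 CPM in ncs2∆elp6∆ (log2 fold change -0.94 ± 0.14, adjusted p = 0.00114 by edgeR). MET6, the methionine synthase, went from 384 and 349 CPM to 223 and 219 CPM (-0.73 ± 0.08, adjusted p = 0.000191). Both fell also in the triple mutant against hel2∆, by 0.83 and 0.94 on the log2 scale. MET6 belongs to methionine synthesis, in which the strains differ by MET17.

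The genes of the glycine cleavage system, which yields one-carbon units in mitochondria, were read in the same way, together with the mitochondrial one-carbon genes SHM1 and MIS1. Of 6 genes, 2 fell in ncs2∆elp6∆ against wild type, 2 rose in the triple mutant against ncs2∆elp6∆, and 2 rose in the triple mutant against hel2∆. GCV1, the T subunit, stood at 150.3 and 142 CPM in wild type, 168 and 172 CPM in hel2∆, 112 and 102 CPM in ncs2∆elp6∆, and 214 and 199.6 CPM in the triple mutant. It was thus lowest in ncs2∆elp6∆ and highest in the triple mutant, with no overlap between any of the strains. Its log2 fold change on loss of HEL2 was 0.95 ± 0.08 without the modification (adjusted p = 0.000132 by edgeR) and 0.22 ± 0.08 with it (adjusted p = 0.731). GCV1 stayed called in ncs2∆elp6∆ over wild type and in the triple mutant over ncs2∆elp6∆ whichever library was left out, while the other 4 calls of this list, of GCV1 in the triple mutant against hel2∆, of GCV2 and of GCV3, were each lost without at least 1 library (adjusted p from 0.0586 to 0.216).

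Of 6 histidine synthesis genes, some of which Bas1 and Bas2 also activate, 1 rose in hel2∆ against wild type, 1 in ncs2∆elp6∆ against wild type, 2 in the triple mutant against ncs2∆elp6∆ and none in the triple mutant against hel2∆. The gene called in ncs2∆elp6∆, HIS1, lost its call without wild-type replicate 1 or ncs2∆elp6∆ replicate 1 (adjusted p from 0.0551 to 0.0842). HIS5, called beside HIS4 in the triple mutant against ncs2∆elp6∆, lost its call without any one library of these strains (adjusted p from 0.0619 to 0.17). HIS4, the best known of these targets, stood at 459.99 and 451 CPM in wild type and at 637 and 623 CPM in hel2∆, and at 482 and 448 CPM in ncs2∆elp6∆ and 619.7 and 649.9 CPM in the triple mutant. Its libraries were higher wherever HEL2 was absent and did not separate by the U34 modification. The rise was 0.47 ± 0.07 in the wild-type background (adjusted p = 0.0218 by edgeR), a call lost on leaving out any one of the 8 libraries (adjusted p from 0.0501 to 0.205), and 0.45 ± 0.07 without the modification (adjusted p = 0.01), lost without ncs2∆elp6∆ replicate 2 or triple-mutant replicate 2 (adjusted p from 0.0501 to 0.117).

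Pyrimidine synthesis, the parallel nucleotide pathway, is touched by the strains' URA3 alleles. Of 11 genes, 6 fell and 2 rose in ncs2∆elp6∆ against wild type, and 7 fell and 1 rose in the triple mutant against hel2∆. URA1, the dihydroorotate dehydrogenase, stood at 769 and 777 CPM in wild type and at 183 and 179 CPM in ncs2∆elp6∆, a fall of 4.27-fold (log2 fold change -2.09 ± 0.07, adjusted p = 2.26e-07 by edgeR). URA4, the dihydroorotase, went from 334 and 283 CPM to 119 and 123 CPM (-1.35 ± 0.10, adjusted p = 1.85e-05). Loss of the U34 modification and restored URA3 cannot be told apart here. In the triple mutant against ncs2∆elp6∆, where the URA3 alleles are the same, 3 of the 11 were called lower, and each call was lost without any one library of these 2 strains.

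**Figure D5:**
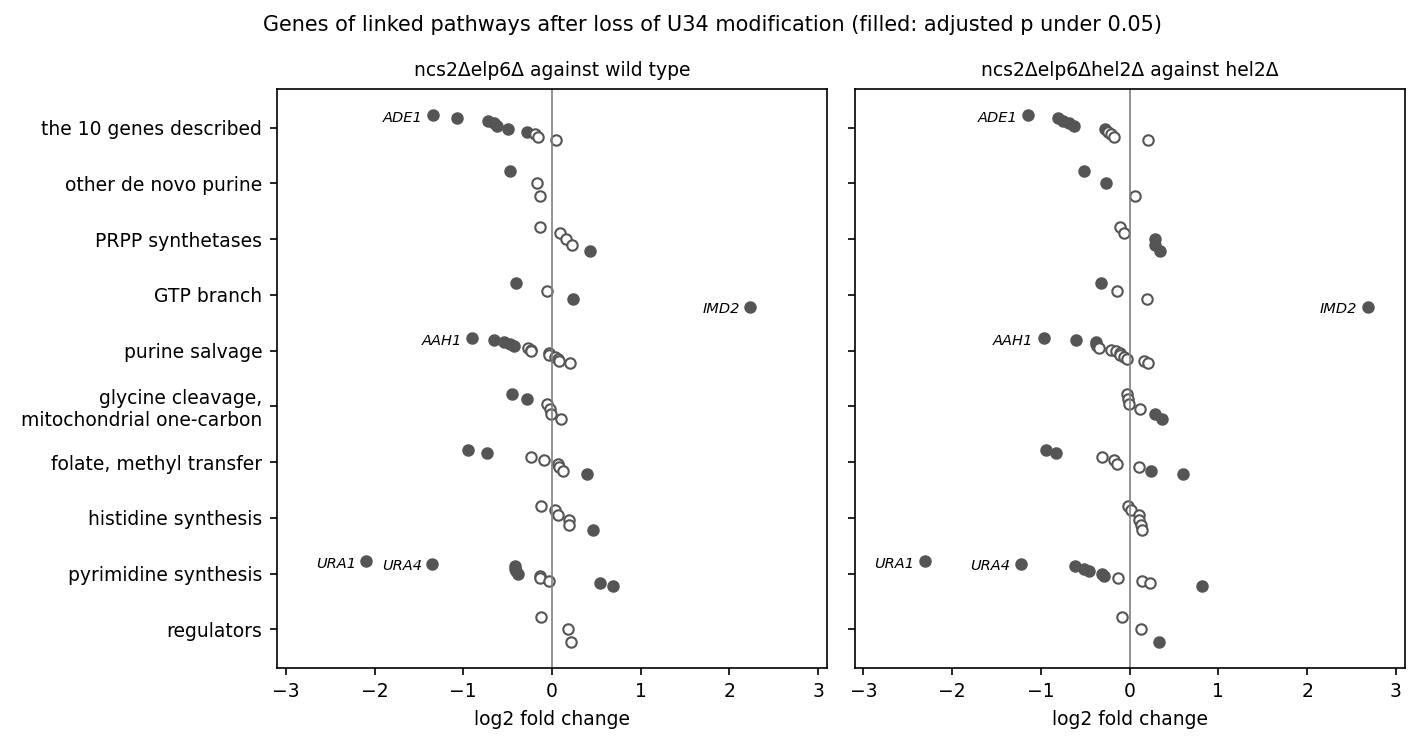
Log2 fold change of the 10 genes and of the genes of linked pathways in ncs2∆elp6∆ against wild type (left) and ncs2∆elp6∆hel2∆ against hel2∆ (right), 1 point per gene; filled points passed the test at an adjusted p under 0.05. IMD2 (2.23 and 2.68) lies far to the right, URA1 (-2.09 and -2.31) far to the left, and ADE1 leads the 10 genes.

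Over the 8 libraries, 9 of the 10 genes followed the mean of the other members with correlations of log2 CPM from 0.90 (ADE5,7) to 0.99 (ADE17), while MTD1 had -0.38. Among all other genes the 5 most like the mean of the 10 were FBA1 and PGK1, both of glycolysis, ACT1, which encodes actin, WTM1 and VMA8, a subunit of the vacuolar proton pump, with correlations from 0.990 to 0.996. Their log2 fold changes in ncs2∆elp6∆ against wild type lay between -0.91 for PGK1 and -0.40 for ACT1. In all, 432 other genes, 7.11% of those tested, had a correlation over 0.9 with the mean of the 10. The profile over these 8 libraries is therefore shared with many genes outside the purine pathway, and the correlations are a description over libraries that fall into 4 strains.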

How the data were processed

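Poly(A) RNA of 4 strains was measured by stranded sequencing in 2 libraries each. The authors deposited 1 table of counts, whole numbers of reads per gene and not normalised, with a column per library. Per the study's methods, reads were mapped to coding sequences without adaptor trimming, and the submitters' processing notes name Bowtie and sacCer3, the browser name of R64. How reads shared by several genes were counted was not given in the sources used here. Symbols, coordinates and sequences came from the RefSeq annotation of R64, to which 5804 of the 6337 genes matched by systematic name and 533 did not.

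Genes with few counts were removed by filterByExpr of edgeR 4.0.16, and libraries were scaled by TMM. All 8 libraries entered 1 quasi-likelihood fit in R 4.3.3 with strain as the only factor, and 5 comparisons were tested with the two-sided F test, with Benjamini-Hochberg adjustment over 6087 genes. Genes with an adjusted p below 0.05 count as called. The SE is the absolute log2 fold change over the square root of F. An exact permutation test of 2 against 2 libraries cannot go below p = 0.333. Log2 CPM for correlations had a prior count of 2. Similar coding sequences were sought with BLAST 2.17.0+, and a copy was called near-identical at 95% identity over 100 nt. The scripts were tested on simulated data.

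The 10 genes, the 9 lists of linked genes (other de novo purine, PRPP, GTP branch, salvage, glycine cleavage, folate, histidine, pyrimidine, regulators) and the tests were chosen with earlier results of these data known. All 10 genes were named in every comparison, with at most the 3 largest called changes per list, the regulators, the deleted genes, MET17 and the 5 most alike genes. ADE12 and ADE16 were also named where they were not called, after their values were seen. IMD4 had no row under that symbol. LEU2 and URA3 were not analysed here. The alternatives were library totals, RLE, DESeq2 1.42.0, no filter, a fit to the compared strains only, a replicate block and leaving out each library.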

Additional observations from a re-analysis of the deposited data

Results flagged for a closer look

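GCV1, which encodes the T subunit of glycine decarboxylase and is not one of the 10 genes, was the single gene of the 10 and of the linked lists for which the effect of HEL2 loss differed between the backgrounds. The interaction was 0.73 ± 0.11 on the log2 scale (adjusted p = 0.0132 by edgeR), since the level rose on loss of HEL2 without the U34 modification by 0.95 and its change with the modification, 0.22, was not called. Both triple-mutant libraries (214 and 199.6 CPM) lay above the other 6. The call was lost without ncs2∆elp6∆ replicate 2 or triple-mutant replicate 1 (adjusted p from 0.0731 to 0.0809). Of the other genes of glycine cleavage, GCV2 had an interaction of 0.26 (adjusted p = 0.351) and GCV3 of 0.26 (adjusted p = 0.379). The cause was not tested.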

How the results depend on the processing

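The counts of called genes among the 10 in hel2∆ against wild type (0) and ncs2∆elp6∆ against wild type (7) stayed within 1.5 times under all alternatives run. In the triple mutant against ncs2∆elp6∆ the count of 2 was 1 with library totals and ran from 0 to 3 when single libraries were left out. The labels give no shared batch or day for a replicate number, so the numbers were not taken to pair libraries. The correlation of same-numbered deviations was 0.48 between wild type and hel2∆, 0.08 and 0.12 between these and the triple mutant, and from -0.21 to -0.12 between ncs2∆elp6∆ and each other strain. A replicate block gave 0, 7, 3, 6 and 0 calls in the order of the comparisons. Pairing crossed in ncs2∆elp6∆, added after seeing the data, gave 4 calls in the triple mutant against ncs2∆elp6∆, 10 against hel2∆ and 1 in the interaction, where it called 1265, 2604 and 322 of all genes in place of 422, 1754 and 69. In it ADE2, ADE4, ADE5,7 and MTD1 also passed the test in the triple mutant against hel2∆. Over all genes the uncrossed block moved the calls in the triple mutant against ncs2∆elp6∆ from 422 to 663 and in the interaction from 69 to 119.

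Among the 10 genes, the regulators and the linked genes named, signs turned only for values that were not called. With library totals these were ADE13 (-0.022), ADE17 (-0.026) and PHO2 (-0.028) in hel2∆ against wild type, BAS1 (-0.0027) in the triple mutant against ncs2∆elp6∆ and GCN4 (0.017) in the triple mutant against hel2∆. In the triple mutant against ncs2∆elp6∆, ADE6 was 0.023 with RLE, 0.023 with DESeq2 and 0.015 with the compared strains only, and ADE13 was 0.023, 0.023 and 0.015 in these and 0.00015 without a filter. When single libraries were left out, BAS1 ran from -0.120 to 0.024 in hel2∆ against wild type and MTD1 from -0.047 to 0.106 in ncs2∆elp6∆ against wild type. In the triple mutant against ncs2∆elp6∆ the ranges were -0.018 to 0.071 for ADE6, -0.063 to 0.344 for ADE8, -0.021 to 0.075 for ADE13 and -0.048 to 0.052 for PHO2. In the interaction they were -0.082 to 0.035 for ADE4, -0.110 to 0.065 for ADE5,7, -0.202 to 0.206 for ADE8, -0.061 to 0.035 for ADE13, -0.082 to 0.018 for PHO2 and -0.011 to 0.086 for GCN4. With 1 library left in a strain, that library is assumed to vary like the others. The cause of these changes was not tested. Over all genes the 422 calls of the triple mutant against ncs2∆elp6∆ became 69 to 179 without 1 library of these strains.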
